A study of Mus musculus with 6 samples.

Results

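Ribosome biogenesis genes encode the proteins that make ribosomal RNA and build it, with ribosomal proteins, into the 40S and 60S subunits. The set described here has 32 genes out of 18193 genes measured, chosen by name for their steps: RNA polymerase I, small nucleolar ribonucleoproteins (snoRNPs), the small subunit (SSU) processome, 60S assembly and nucleolar scaffold proteins. All 32 had at least 1 probe set with a single gene symbol, and each gene was read from its brightest such probe set, by the mean of the 6 arrays. Every array value of every member lay at 9.30 (log2) or above, while the array medians lay between 6.31 and 6.34, so no member was dim.

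Ribosome synthesis begins in the nucleolus, where RNA polymerase I transcribes a long precursor RNA. Box C/D and box H/ACA snoRNPs modify that RNA at sites chosen by their guide RNAs, the SSU processome folds and cuts the part that becomes the 40S subunit, and a separate line of factors builds the 60S subunit. Pluripotent stem cells divide quickly, have large nucleoli and express these factors strongly.

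The study measured total RNA of mouse embryonic stem (ES) cells on Affymetrix 430 arrays, 1 array per sample. The 3 diploid samples were male lines of 129Sv background (replicates 1 and 2) or 129 background (replicate 3). The 3 haploid samples, which carry a single set of chromosomes, were HAP1 at passage 24 and HAP2 at passage 21, both F1 CBAxB6, and HTG1 at passage 11, labelled mixed transgenic. They are called haploid replicates 1, 2 and 3. All cells grew in 2i medium, which inhibits the kinases MEK and GSK3, and RNA was taken 2 days after passaging. The labels name no transgene for HTG1 and do not say how many cells were haploid when RNA was taken. Ploidy, strain, sex and line differ together between the groups and cannot be told apart. The design names biological triplicates, but the titles do not say that the diploid samples were separate lines, so the p-values measure the spread between these samples. RMA values are relative to the bulk of genes on each array, and a change in total RNA per cell cannot be seen in them.

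The core promoters of the members show which of them share a known element of growth genes. The Myc and Max proteins bind the E-box CACGTG, and RefSeq promoters of assembly GRCm38.p6, which run from 250 bases before to 50 after each annotated start, were available for 27 of the 32 members. CACGTG reads the same on both strands and occurred in 6 of these 27, against 8.09% of 27025 genes with a promoter and 12.8% of the 7492 whose array level lay above the median. The 6 are shown because they include Utp4, Wdr43 and Pes1, which were lower in haploid cells. Each is written 5′ to 3′ on the gene's strand with the E-box in capitals:

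Utp4: gcgcaagcgcgCACGTGgggccggggcg

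Wdr43: gcccgggcgaaCACGTGgctgccgcgga

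Pes1: cctaggcagggCACGTGcgggaggaagt

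Utp18: cgagcgccggtCACGTGgcttgcggcgg

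Utp20: ggcactaactaCACGTGaggaaaa

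Nop2: tgtccctggatCACGTGtgttccggtgc

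The windows lie at chr8:106893644-106893671 on the plus strand (Utp4), chr17:71616221-71616248 plus (Wdr43), chr11:3963966-3963993 plus (Pes1), chr11:93885770-93885797 minus (Utp18), chr10:88826765-88826788 minus (Utp20) and chr6:125131812-125131839 plus (Nop2). The first base of the E-box was base 16 from the annotated start in Utp4, base 18 in Wdr43, base 3 in Pes1 and base 38 in Utp20, so these 4 lie within the first bases of the transcript. It lay 20 bases before the start in Utp18 and 60 before it in Nop2. A motif bound by ETS factors, CCGGAAG or its reverse complement CTTCCGG, occurred in 10 of the 27, against 9.93% of all genes and 22.8% of those above the median level. Heatr1, another member lower in haploid cells by its brightest probe set, held it from base 16 before its start, at chr13:12395348-12395376 on the plus strand:

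Heatr1: gtagtgagaagCCGGAAGttcctatgagg

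No overlap was seen between the E-box and this motif in Nop2, Utp4 or Utp18, which held both. The E-box variant CACGCG occurred in 8 of 27 members (10.5% of all genes and 21.8% of those above the median level), CATGTG in 8 (15.9% and 9.38%), CCAAT in 11 (41.1% and 43.8%), TATAAA in 2 (15.7% and 7.79%), and the palindromic NRF1 and BANP motifs in none, each read on both strands. A match describes these letters only, and the 8 motifs were picked with the expression values known.

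In haploid cells 5 ribosome biogenesis genes fell and 1 rose. The 5 were the SSU processome genes Utp4, Wdr43 and Heatr1 and the 60S assembly genes Pes1 and Rrp1, lower by 1.34-fold to 1.72-fold, and the 1 was Dkc1, the X-linked pseudouridine synthase of box H/ACA snoRNPs, which was 1.67-fold higher. Among all 18193 genes 6.96% were called lower and 7.92% higher, 14.9% in all, at an adjusted p under 0.05 (limma, Benjamini-Hochberg over all genes). Among genes above the median level, as all members were, 9.21% were called lower and 12.7% higher. Members below 0 numbered 25 of 32, against 54.2% of all genes and 45.4% of genes above the median level, and the members' median difference was -0.14 (log2), against -0.03 and 0.04. The 3 haploid values all lay below the 3 diploid values for 15 members (20.2% of all genes) and all above for 2 (17.7%), Dkc1 and Bop1. These are counts beside a background and no test was made over the list, whose genes were picked with earlier results of these data known. Omission of diploid replicate 3 left 1 member called lower, omission of diploid replicate 2 left 2 and omission of haploid replicate 2 left 3.

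**Figure D1:**
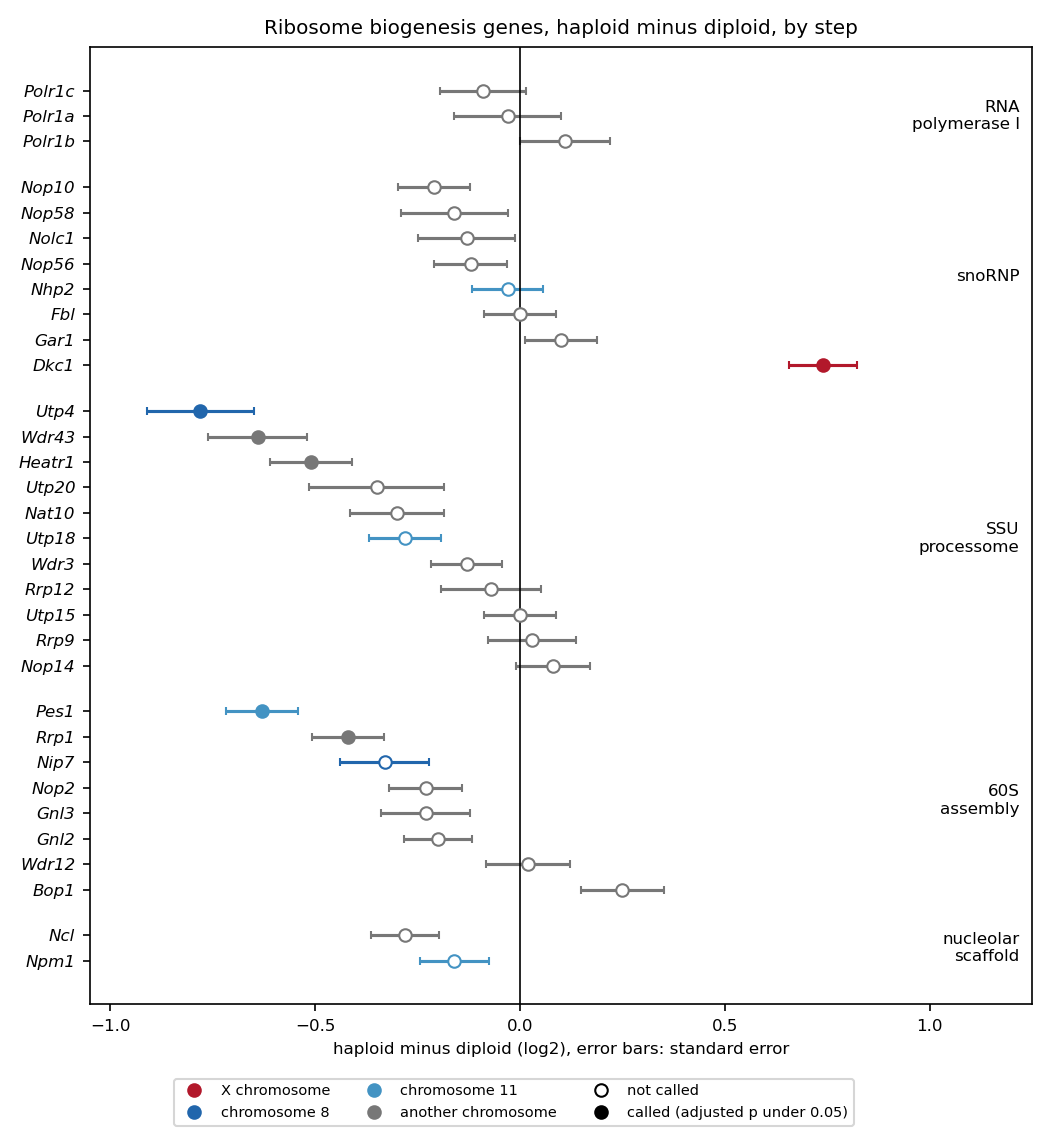
Haploid minus diploid difference (log2, x axis) of each of the 32 members, grouped by step, with the moderated standard error as bars and colour for the chromosome; filled points were called at an adjusted p under 0.05. Dkc1 stands alone at 0.74, and the called members of the SSU processome and of 60S assembly lie between -0.78 and -0.42.

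RNA polymerase I showed no called change by limma at any of its 3 subunits in the set, and 0 of them had an unadjusted p under 0.05. The subunits Polr1d and Polr1e, measured outside the set, differed by -0.09 and -0.01 (limma adjusted p = 0.67 and 0.95). Polr1a, the largest catalytic subunit, had 10.59, 10.23 and 10.23 in the diploid and 10.32, 10.20 and 10.43 in the haploid samples (log2), a difference of -0.03 ± 0.13 (moderated SE, n = 3 per group). Polr1b, the second catalytic subunit, had 9.86, 10.07 and 10.12 against 10.23, 10.13 and 10.02. Polr1c, a subunit shared with RNA polymerase III, had 11.80, 11.55 and 11.78 against 11.66, 11.54 and 11.66. The groups overlapped for all 3 genes. The 95% intervals of the difference were -0.34 to 0.27 for Polr1a, -0.15 to 0.38 for Polr1b and -0.34 to 0.16 for Polr1c. Diploid replicate 1 had the highest Polr1a value, and Polr1a lies on chromosome 6. On that array the chromosome 6 genes above the median level stood at a median of 0.29 relative to all autosomes. The same median was -0.11 and -0.10 in diploid replicates 2 and 3. Other probe sets of Polr1a lay lower in haploid cells, at -0.77 and -0.56, and neither passed when every probe set was tested on its own (limma adjusted p = 0.0569 and 0.142). The position of these probe sets in the transcript was not examined.

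Among the snoRNP proteins only Dkc1 was called. Dkc1, dyskerin, had 13.24, 13.19 and 13.16 in the diploid samples and 13.93, 13.94 and 13.94 in the haploid samples. The groups were far apart and the haploid samples nearly equal. The difference was 0.74 ± 0.083 (log2, SE, limma adjusted p = 0.00343), and the other probe sets of Dkc1 gave 0.67 and 0.69. X-linked genes above the median level stood 0.75 higher in the haploid samples, by their median relative to all autosomes. Over all X-linked genes the median difference was 0.37. With each chromosome's median shift subtracted Dkc1 differed by -0.01 (limma adjusted p = 0.942).

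The partners of dyskerin in the H/ACA particle did not move with it. Gar1, which binds dyskerin, had 11.71, 11.57 and 11.66 against 11.74, 11.78 and 11.71, and the groups overlapped. Nhp2, which binds the guide RNA, had 13.40, 13.41 and 13.48 against 13.35, 13.42 and 13.44 and overlapped fully. Nop10, the smallest of the core proteins, had 13.38, 13.31 and 13.41 against 13.14, 13.10 and 13.21. Its haploid values all lay below the diploid values, with a difference of -0.21 that was not called (limma adjusted p = 0.15), and its second probe set gave 0.06. The 95% interval reached 0.30 for Gar1 and 0.17 for Nhp2, both below the lower bound of 0.54 for Dkc1. Nhp2 lies on chromosome 11, whose genes above the median level had a median shift of -0.29 (log2) in the haploid against the diploid samples. Over all genes of chromosome 11 the median difference was -0.17. With the chromosome shifts subtracted Nhp2 differed by 0.26 (limma adjusted p = 0.088).

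The box C/D proteins differed little. Fibrillarin, Fbl, the methyltransferase of these particles, had 13.11, 13.04 and 13.11 in the diploid and 13.15, 13.08 and 13.03 in the haploid samples, with a mean of 13.09 in both groups and a 95% interval of the difference from -0.21 to 0.20. Its scaffold partners Nop56 and Nop58 differed by -0.12 and -0.16 (limma adjusted p = 0.419 and 0.447). Nop58 had 12.59 in diploid replicate 1, below every haploid value, but 12.90 and 13.02 in the other diploid samples. Nolc1, a chaperone of snoRNPs in the nucleolus, had 11.94, 12.08 and 12.13 against 11.93, 12.09 and 11.74. Its probe sets lay on both sides of 0, at -0.45, -0.13 and 0.28, and none was called.

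**Figure D2:**
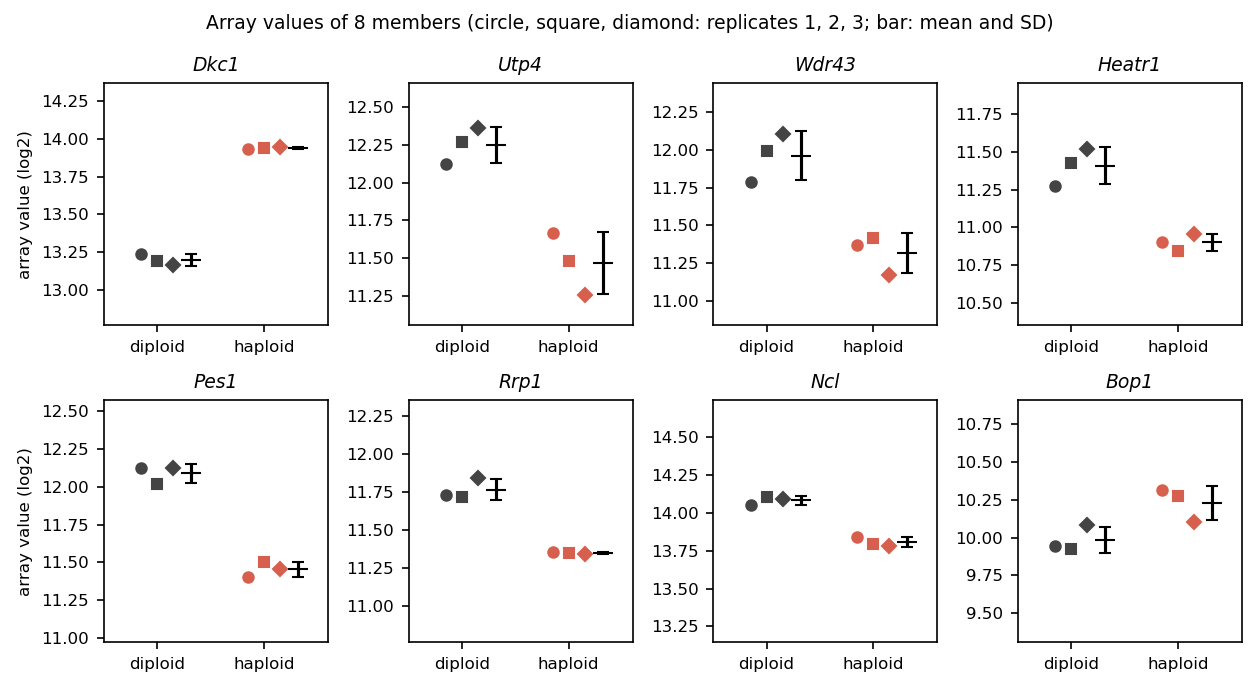
Array values (log2, y axis, each panel spanning the same height) of the 6 called members and of Ncl and Bop1, whose groups did not overlap although they were not called, in 3 diploid and 3 haploid samples; symbols mark replicates 1, 2 and 3 and bars show the mean and SD. Haploid values of Rrp1 lie between 11.34 and 11.35 and those of Dkc1 between 13.93 and 13.94, while Utp4 spreads from 11.26 to 11.67 in the haploid samples.

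The SSU processome held 3 of the 5 members that fell, out of 11 measured, and its median difference was -0.28, or -0.13 with 2 called after chromosome shifts were subtracted. Utp4, a subunit of the UtpA complex that binds the start of the precursor RNA first, had 12.12, 12.27 and 12.36 in the diploid and 11.67, 11.48 and 11.26 in the haploid samples. It was the member that differed most, by -0.78 ± 0.13 (1.72-fold, limma adjusted p = 0.0114). Utp4 lies on chromosome 8, whose genes above the median level had a median shift of -0.35 in the haploid against the diploid samples. Over all genes of chromosome 8 the median difference was -0.20. With chromosome shifts subtracted Utp4 differed by -0.43 and was not called (limma adjusted p = 0.0711), nor was it without diploid replicate 3 (0.0558).

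Wdr43, a UtpA subunit as well, had 11.79, 11.99 and 12.11 against 11.37, 11.42 and 11.17. It fell 1.56-fold (-0.64 ± 0.12, limma adjusted p = 0.0167), and it stood at -0.73 with chromosome shifts subtracted (0.0114). Its other probe set differed by -0.12, with haploid replicate 3 at 10.46, above all diploid values. Wdr43 did not pass without diploid replicate 2 or 3 (limma adjusted p = 0.0638 and 0.0695).

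Heatr1, a large scaffold protein of the same complex that is also needed for transcription by RNA polymerase I, had 11.28, 11.43 and 11.52 against 10.90, 10.84 and 10.96. It fell 1.42-fold by this probe set (-0.51 ± 0.10, limma adjusted p = 0.0194), and both dimmer probe sets of the gene went the other way. The dimmest had 6.26, 5.85 and 6.03 in the diploid and 6.75, 6.66 and 6.67 in the haploid samples. Its difference of 0.65 passed when every probe set was tested on its own (limma adjusted p = 0.0178). The remaining probe set differed by 0.24 and did not pass (limma adjusted p = 0.271). With the mean of its 3 probe sets Heatr1 differed by 0.13 (limma adjusted p = 0.294), so its direction rests on the choice of probe set. The call was lost when diploid replicate 2, diploid replicate 3 or haploid replicate 2 was omitted (limma adjusted p = 0.0671 to 0.078).

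Of the 8 processome members that were not called, 3 had haploid values all below the diploid values. Over all genes, called or not, this held for 20.2%. Utp18, of the UtpB complex and on chromosome 11, had 11.65, 11.70 and 11.74 against 11.41, 11.49 and 11.35, a difference of -0.28 (limma adjusted p = 0.0775) that was 0.01 with chromosome shifts subtracted. Its second probe set had a mean of 4.37 in the diploid samples, under the lower quartile of every array, and 5.31 in the haploid samples. Nat10, an RNA acetyltransferase, had 9.78, 9.91 and 9.92 against 9.70, 9.62 and 9.38, a difference of -0.30 (limma adjusted p = 0.124). Wdr3, of the UtpB complex, differed by -0.13, with 10.81, 10.91 and 10.90 against 10.72, 10.75 and 10.78.

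Utp20, a very large scaffold of the late processome, had 10.86, 11.38 and 11.36 in the diploid and 10.74, 10.80 and 11.01 in the haploid samples. Diploid replicate 1 lay among the haploid values, and the difference was -0.35 (limma adjusted p = 0.197). Without that sample it was -0.52 and passed (0.0411). Across the 11 processome members the mean deviation from the diploid mean was -0.11, 0.01 and 0.09 in diploid replicates 1, 2 and 3 and -0.22, -0.27 and -0.31 in the haploid replicates. Diploid replicate 1 thus lay lowest of the diploid samples for this step, and all haploid samples lay lower.

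The remaining processome members showed no shift. Utp15, a UtpA subunit like Utp4, had 10.60, 10.60 and 10.69 against 10.57, 10.63 and 10.67. Rrp9, which recognises the U3 snoRNA that guides the first cuts, had 11.05, 10.87 and 10.998 against 11.16, 10.93 and 10.92. Nop14 had 10.22, 10.30 and 10.38 against 10.43, 10.35 and 10.37, and Rrp12, an export factor of the 40S precursor, had 9.32, 9.43 and 9.67 against 9.51, 9.40 and 9.30. All 4 overlapped between the groups, with adjusted p from limma between 0.565 and 0.976. The 95% interval of Utp15, -0.21 to 0.20, did not overlap that of Utp4, -1.09 to -0.47, and the difference between these genes was not tested further.

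Factors of 60S assembly included the other 2 members that fell, out of 8, with a median difference of -0.23. Pes1, Bop1 and Wdr12 form the PeBoW complex, which is needed to process the internal spacer of the 60S precursor, and their values went different ways. Pes1 had 12.13, 12.02 and 12.12 in the diploid and 11.41, 11.50 and 11.45 in the haploid samples, and fell 1.55-fold (-0.63 ± 0.088, limma adjusted p = 0.00605). Bop1 had 9.94, 9.93 and 10.08 against 10.31, 10.28 and 10.10, a difference of 0.25 with haploid values all above the diploid values but not called (limma adjusted p = 0.152). Wdr12 had 11.09, 11.26 and 11.30 against 11.27, 11.30 and 11.14 and overlapped fully. The 95% interval was -0.84 to -0.43 for Pes1, 0.01 to 0.49 for Bop1 and -0.22 to 0.26 for Wdr12, and the interval of Pes1 overlapped neither of the others. Pes1 lies on chromosome 11, and with chromosome shifts subtracted it differed by -0.34 (limma adjusted p = 0.0515).

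Rrp1, a nucleolar protein of early 60S particles, had 11.73, 11.72 and 11.85 against 11.35, 11.35 and 11.34. It fell 1.34-fold (-0.42 ± 0.087, limma adjusted p = 0.0222), and by 0.47 with chromosome shifts subtracted, where it was called too. The call was lost without any one array except diploid replicate 1, with limma adjusted p from 0.0502 to 0.0881, although the difference stayed between -0.44 and -0.38 in those fits. Both of its probe sets have names that mark possible matches to several transcripts, and the second one differed by -0.26.

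The nucleolar GTPases Gnl3 (nucleostemin) and Gnl2 and the RNA methyltransferase Nop2 lay slightly lower without being called. Gnl3 had 12.43, 12.43 and 12.35 against 11.98, 12.25 and 12.28, Gnl2 had 10.44, 10.40 and 10.40 against 10.17, 10.23 and 10.25, and Nop2 had 10.95, 10.82 and 10.93 against 10.68, 10.62 and 10.72. The groups did not overlap for these 3 genes, with differences of -0.23, -0.20 and -0.23 (limma adjusted p = 0.201, 0.164 and 0.135). Haploid values all lay below the diploid values in 20.2% of all genes. With chromosome shifts subtracted the differences were -0.24, -0.25 and -0.18 (limma adjusted p = 0.172, 0.0931 and 0.326). Nop2 lies on chromosome 6, whose genes above the median level stood at a median of 0.29 in diploid replicate 1. Nip7, a factor of precursor RNA processing encoded on chromosome 8, had 12.41, 12.22 and 12.32 against 11.997, 11.85 and 12.12, a difference of -0.33 (limma adjusted p = 0.0875). It was 0.02 with chromosome shifts subtracted. The dimmer probe set of Nip7 differed by -0.78 and passed among all probe sets (limma adjusted p = 0.0452).

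The abundant nucleolar proteins nucleolin and nucleophosmin lay lower by small amounts that were not called. Nucleolin, Ncl, which binds the precursor RNA and rDNA chromatin, had 14.05, 14.10 and 14.09 in the diploid and 13.84, 13.79 and 13.78 in the haploid samples. The groups did not overlap, and the difference was -0.28 ± 0.083 (limma adjusted p = 0.0693). It passed in 5 of the 15 other fits, with limma adjusted p from 0.0142 to 0.0464, among them the one with chromosome shifts subtracted (-0.34, 0.0414). The other probe sets of Ncl differed by -0.36, -0.20, -0.17 and 0.02, and none passed on its own (limma adjusted p = 0.0555 to 0.902). With its probe sets averaged Ncl differed by -0.20 (limma adjusted p = 0.127). Nucleophosmin, Npm1, a histone chaperone that keeps the outer nucleolus together, had 14.63, 14.70 and 14.69 against 14.52, 14.55 and 14.47, a difference of -0.16 (limma adjusted p = 0.247). Npm1 lies on chromosome 11 and stood at 0.13 with chromosome shifts subtracted.

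**Figure D3:**
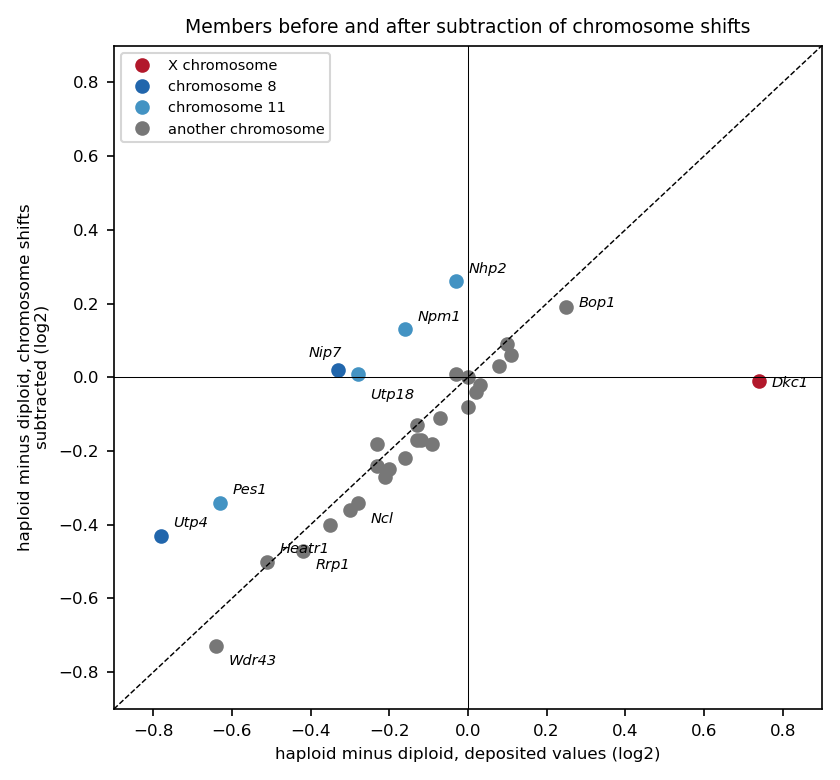
Each member's haploid minus diploid difference on the deposited values (x axis, log2) against the same after each chromosome's median shift was subtracted from each array (y axis, log2); the dashed line marks equality and colour the chromosome. Dkc1 moves from 0.74 to -0.01 and the members of chromosomes 8 and 11 move up, while Wdr43, Heatr1 and Rrp1 stay near the line.

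Members on chromosomes with a shift of their own gave 3 of the 6 calls. The 6 members on chromosomes 8 and 11, Utp4, Nip7, Nhp2, Utp18, Pes1 and Npm1, all lay below 0, with a median of -0.30, and 2 of them were called. Among all genes, dim ones included, 21.2% on chromosome 8 and 20.3% on chromosome 11 were called lower. With chromosome shifts subtracted the 6 members had a median of 0.02, none was called by limma and 3 had an unadjusted p under 0.05. The 25 members on other autosomes had a median of -0.13 with 3 called, Wdr43, Heatr1 and Rrp1. Of all genes outside X, 8 and 11, 5.04% were called lower and 7.54% higher. After the subtraction the 25 members had a median of -0.17 with 4 called, all lower, Ncl being the fourth. Of the 15201 genes outside X, 8 and 11, 967 were then called lower and 913 higher. Over all genes 14.3% were then called, 7.46% lower and 6.79% higher. The chromosome shifts were the medians over genes above the median level, 505 on chromosome 8, 792 on chromosome 11 and 297 on X.

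The 26 members that were not called had 95% intervals that together ran from -0.74 to 0.49, so changes past 1.67-fold lower or 1.40-fold higher lay outside the interval of every one of them. The SDs among replicates ran from 0.024 to 0.295 in the diploid and from 0.005 to 0.205 in the haploid samples. The 6 members with an E-box all lay below 0, with a median of -0.49 (-0.37 with chromosome shifts subtracted), and the 21 with a promoter and no E-box had a median of -0.12 (-0.13), with 15 of them below 0. This difference was not tested, and 3 of the 6 lie on chromosomes 8 and 11. For the other motifs found, the medians with and without the motif lay closer together on the deposited values. They were -0.18 and -0.16 for the ETS motif, -0.17 and -0.16 for CACGCG and -0.12 and -0.16 for CATGTG. For CCAAT they were -0.12 and -0.23, and for TATAAA, held by 2 members, 0.05 and -0.16. With chromosome shifts subtracted the medians were -0.01 and -0.23 for CCAAT and -0.03 and -0.18 for CATGTG. They were -0.15 and -0.22 for the ETS motif, -0.17 and -0.17 for CACGCG and -0.18 and -0.17 for TATAAA. The E-box pair, -0.37 and -0.13, then lay about as far apart as that of CCAAT. The E-box was singled out with these values known.

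**Figure D4:**
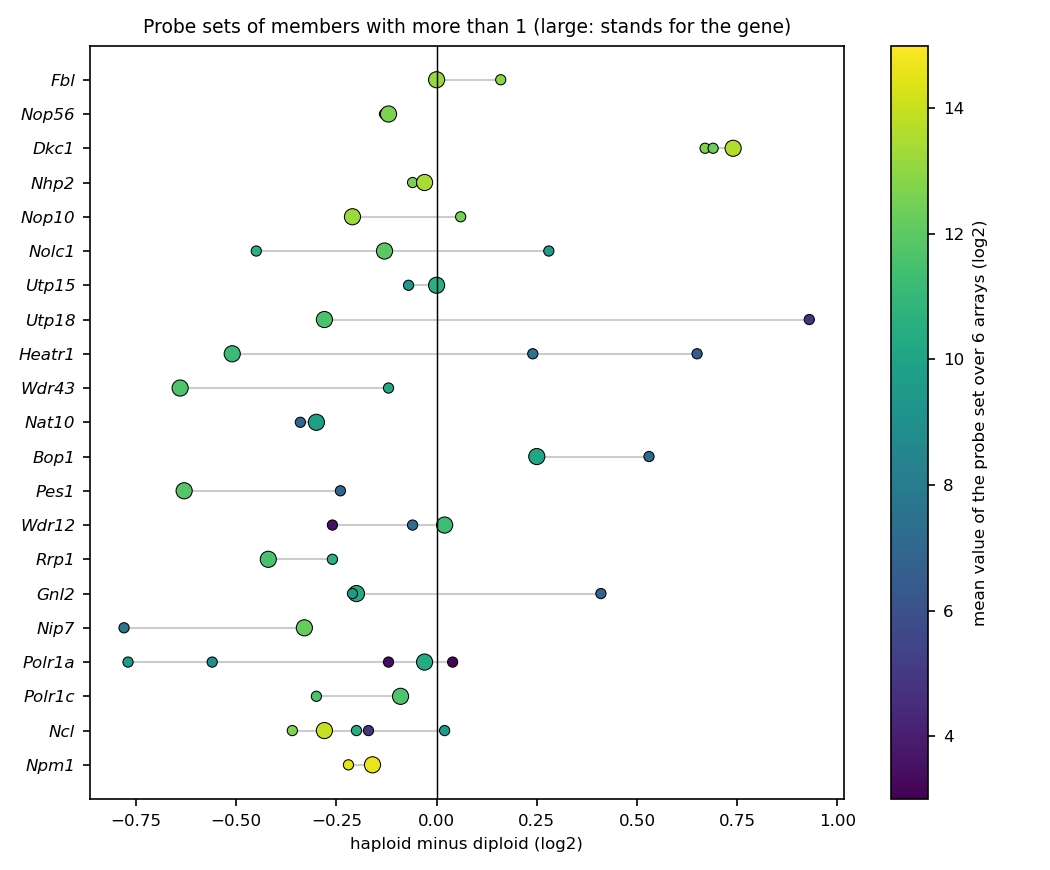
Haploid minus diploid difference (log2, x axis) of every probe set of the 21 members that had more than 1, coloured by the mean value of the probe set over 6 arrays (log2). Large points stand for the gene. The probe sets of Dkc1 lie together from 0.67 to 0.74, and those of Heatr1 run from -0.51 to 0.65.

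Probe sets of a gene mostly lay on 1 side of 0 where they were bright. Among the 16 members with more than 1 probe set brighter than the median gene, 11 had all of those on 1 side of 0. Of all 64 probe sets of the members, 6 were called lower and 5 higher when each was tested on its own, against 6.38% lower and 7.04% higher of 34945 probe sets. The 5 higher ones were 3 of Dkc1 and 1 each of Heatr1 and Utp18, of which the Utp18 probe set was dim.

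Within the haploid lines no member differed between HTG1 and the F1 lines HAP1 and HAP2. In a limma fit of 3 groups 68 genes passed over all 18193 (0.374%), none of them a member, and 0 members had an unadjusted p under 0.05, against 1669 genes. The largest size was that of Utp4, at -0.32 ± 0.17 (log2), and the median over members was -0.01, as over all genes. HTG1 had a single array, assumed to vary like the other groups, so small differences would not be detected.

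Of 109 other genes of ribosome synthesis, from lists of 115, 16 fell and 4 rose in haploid cells (14.7% and 3.67%, against 6.96% and 7.92% of all genes), with a median of -0.08. Among genes above the median level 9.21% fell and 12.7% rose. For RNA polymerase I and its factors 1 of 10 rose and 1 fell. The termination factor Ttf1 rose 1.39-fold (8.97, 8.82 and 9.01 against 9.42, 9.41 and 9.40), and Taf1c, of the promoter selectivity factor, fell 1.69-fold (9.23, 9.67 and 9.70 against 8.61, 8.87 and 8.85). For snoRNP assembly factors 1 of 9 rose and 2 fell. Naf1, which loads dyskerin onto nascent H/ACA RNA, fell 1.75-fold (-0.81 ± 0.13, limma adjusted p = 0.00861), Znhit3 fell 1.32-fold, and the ATPase Ruvbl2 rose 1.30-fold.

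The processome and 40S list had 9 of 35 lower and 1 higher, with a median of -0.15. The helicase Ddx52 fell 1.74-fold, the 40S maturation factor Tsr1 1.65-fold and the endonuclease Nob1, which makes the last cut of the small subunit RNA, 1.56-fold (11.33, 11.34 and 11.34 against 10.66, 10.65 and 10.76). Utp14a, a processome protein encoded on X, rose 1.45-fold. For 60S assembly 3 of 43 fell, the RNA methyltransferase Ftsj3 1.42-fold, Pelp1 1.35-fold and the helicase Ddx54 1.31-fold, and the X-linked endonuclease subunit Las1l rose 1.57-fold. In the exosome, which trims precursor RNA, 1 of 12 fell, Exosc6, by 1.31-fold.

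**Figure D5:**
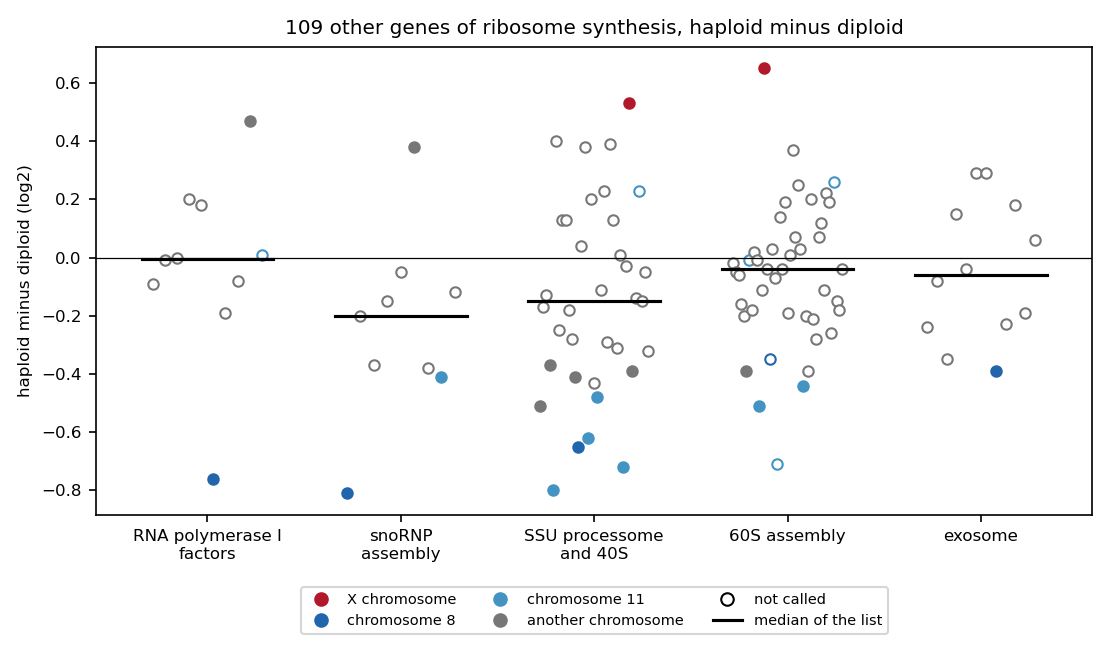
Haploid minus diploid difference (log2, y axis) of 109 other genes of ribosome synthesis in 5 lists, with colour for the chromosome, filled points for called genes and a black line for the median of each list. The highest points of the processome and 60S lists are the X-linked Utp14a (0.53) and Las1l (0.65), and the points below -0.55 all lie on chromosome 8 or 11.

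These calls too lay largely on the shifted chromosomes. Of the other pathway genes on X 2 of 2 rose, on chromosome 8 4 of 5 fell and on chromosome 11 7 of 12 fell. Among all genes 40.7% on X were higher, and 21.2% on chromosome 8 and 20.3% on chromosome 11 were lower. The shares by chromosome include dim genes, and shares over genes above the median level were not computed by chromosome. Of the 90 pathway genes on the other chromosomes 5 fell and 2 rose, against 5.04% lower and 7.54% higher of all genes there. With chromosome shifts subtracted 10 of the 109 fell and 3 rose. Of the genes named here, Taf1c, Exosc6 and Nob1 (chromosome 8), Znhit3, Ftsj3 and Pelp1 (chromosome 11), Utp14a and Las1l (X) and Ruvbl2 were then not called (limma adjusted p = 0.0606 to 0.831), while Ttf1, Naf1, Ddx52, Tsr1 and Ddx54 were. The differences of Utp14a and Las1l turned from 0.53 and 0.65 to -0.22 and -0.10.

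The mean levels of feeder and ES cell markers, and 1 of 2 controls of RNA quality, did not overlap between the groups. The mean over 10 feeder fibroblast markers was 6.16 to 6.93 in the diploid and 5.51 to 5.71 in the haploid samples. The largest difference was that of the collagen Col1a2, which had 9.34, 8.41 and 8.38 against 6.36, 5.73 and 6.17. It was the 1 of 10 called lower (6 at an unadjusted p under 0.05). Of the 10, 9 lay below 0, Thy1 by only -0.03, and Twist1 lay at 0.48 (limma adjusted p = 0.184). The mean over 8 ES cell markers was 13.21 to 13.26 and 13.41 to 13.51, with 3 of 8 higher (Klf4, Nanog and Pou5f1). Of these 8, 2 lay below 0, among them Zfp42 at -0.25 (limma adjusted p = 0.203). The mean over 8 primitive endoderm markers was 6.91 to 7.11 and 6.90 to 7.28, with none called by limma and none at an unadjusted p under 0.05. None of these markers lay under the lowest lower quartile (4.80) on all arrays. For the beta-actin control the 3' probe set exceeded the 5' one by 0.34 to 0.46 (log2) in the diploid and by 0.18 to 0.24 in the haploid samples. For the Gapdh control the same difference was -0.093 to -0.008 and -0.086 to -0.059, and the groups overlapped. The part of feeder cells or of RNA quality in the differences of the members was not tested.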

How the data were processed

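The deposited table holds log2 values per probe set, made by the authors with RMA per the submitters' processing notes. The software, its settings and whether all arrays went through it together are not stated in the labels. RMA commonly equalises array distributions and compresses differences of dim genes. Of 45101 probe sets, 34945 had a single symbol in the platform annotation and gave 18193 genes, and 64 controls were left out. Groups came from the labels, which name no batch. The test of haploid against diploid arrays was that of limma 3.58.1, run in R 4.3.3 (two-sided, no covariate, no filter). On simulated data it called 5% of the genes changed by 0.5 (log2) and 60% of those changed by 1. Of the 68 calls there 4.41% were false. In the real data 2707 genes were called, so the share recovered there can differ and is not known. A member that was not called may therefore still have changed. Every adjusted p is limma's, and SE is the moderated one. Members were chosen by name, and members, lists and motifs were chosen with earlier results of these data known. Array values are given for called members, the members of each step with the highest and lowest mean, those on X and chromosomes 8 and 11, and further ones chosen after their values were seen. Up to 3 called genes per direction are named for each other list. For the chromosome shifts, the median deviation of each chromosome's genes above the median level, relative to all autosomes, was subtracted from each array. Symbols matched RefSeq GRCm38.p6 for 34741 probe sets.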

Additional observations from a re-analysis of the deposited data

How the results depend on the processing

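No paired analysis was possible because the titles number only the diploid samples. The count of members called was 6 on all arrays and 2 to 7 when each array was left out in turn, with 1 to 6 called lower. The median of the members was -0.14 on all arrays, -0.17 after quantile normalization and with array medians aligned, -0.11 when the probe sets of each gene were averaged, and -0.18 to -0.12 when each array was left out. Dkc1 turned to -0.01 with chromosome shifts subtracted and Heatr1 to 0.13 with its probe sets averaged. Of 476 member values under 15 alternatives, 452 kept their side of the threshold, 13 lost and 9 gained a call with their sign kept, and 2 called values changed sign. Most of the 452 belong to the 26 members that were not called on all arrays, which had no call to lose. The 13 and the 2 all belong to the 6 called members. Of the 452, 30 changed sign and were called in neither fit. The cause was not tested. The comparison of the haploid lines with each other was run in 1 setting. The number of arrays, 3 per group, limits the precision of small differences.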

Other observations

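Regulators of growth genes that bind the E-box were measured as a list of 10 Myc family genes. By limma 1 of them rose and none fell, against 7.92% and 6.96% of all genes. At an unadjusted p under 0.05 from limma 3 of the 10 were higher and 1 lower, against 2799 and 2873 of all 18193 genes. With chromosome shifts subtracted 1 rose and 1 fell, Max (0.69) and Mga (-0.41, limma adjusted p = 0.0427). Max, the partner of Myc proteins, had 9.08, 9.24 and 9.37 in the diploid and 9.89, 9.996 and 10.11 in the haploid samples, a 1.70-fold rise (0.77 ± 0.11, SE, n = 3 per group, limma adjusted p = 0.00743). Mycn had 11.22, 11.47 and 11.45 against 10.96, 11.66 and 11.21, and Myc had 5.54, 6.03 and 6.74 against 5.43, 5.22 and 6.47. Both overlapped between the groups.

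Genes of the finished ribosome were measured beside its assembly factors. Of 42 cytosolic ribosomal protein genes with a single-symbol probe set, 1 (2.38%) rose and none fell by limma, with 6 higher and 0 lower at an unadjusted p under 0.05 and a median difference of 0.03 (log2). With chromosome shifts subtracted none rose, 2 fell and the median was -0.03. Of 76 mitochondrial ribosomal protein genes 2 rose and 11 fell (2.63% and 14.5%), with a median of -0.06, and 2 rose and 7 fell with chromosome shifts subtracted. Of all genes 7.92% rose and 6.96% fell, and 6.79% and 7.46% with the shifts subtracted. Whether either list differs from the ribosome biogenesis genes was not tested.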
